A study of Mus musculus with 6 samples.

Results

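Interferon-gamma (IFN-gamma) is made mainly by activated T cells and NK cells, and it is sensed through a receptor of Ifngr1 and Ifngr2 chains and the kinases Jak1 and Jak2. In most cell types the response includes Irf1, a transcription factor made early that switches on further targets, and 2 families of GTPases that attack vacuoles holding intracellular microbes, the guanylate-binding proteins (Gbp genes) and the immunity-related GTPases (Igtp, Irgm1, Iigp1, Ifi47). It also includes Cxcl9 and Cxcl10, chemokines that bind the receptor Cxcr3 and draw in activated T cells and NK cells, so their level in a tumor is widely used as a readout of IFN-gamma action, although type I interferons induce many of the same genes. The 10 genes described here were Gbp2, Gbp4, Gbp7, Igtp, Irgm1, Iigp1, Ifi47, Irf1, Cxcl9 and Cxcl10, chosen by name and all present among the 34187 genes of the matrices. They were followed by treatment in macrophages, dendritic cells, tumor cells and annotated lymphocytes.

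The cells came from subcutaneous 6694c2vTRP1 tumors, a mouse pancreatic ductal adenocarcinoma line, and had been enriched for CD45 with beads. Treatment was PBS, 26 µg per mouse of mono-IL10 (an IL-10 monomer) or 30.6 µg per mouse of IL10/2-Trikine (an IL-10 molecule that also engages the IL-2 receptor), in 2 intraperitoneal doses, the first on day 8, and tumors were taken on day 14. The study's methods name male and female C57BL/6 mice for this tumor model. They state an age for a separate tumor growth experiment and none for the sequenced mice. Each of the 3 groups held 5 mice told apart by hashtag antibodies, with the 5 PBS mice known from the hashtags alone, and the mice of a group were pooled in 1 library. Treatment and library therefore cannot be told apart, both treatments were set against the same PBS mice, and every p-value below measures only the spread between mice.

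The PBS, mono-IL10 and IL10/2-Trikine libraries held 44412, 30528 and 55504 barcodes, with medians of 6497.5, 8078 and 5198 UMIs (counted molecules) per barcode, and pairs of libraries shared 408 to 700 barcodes. Outside the deposited T and NK cell annotation, cells were clustered without the interferon genes and named from markers, so the names end in "-like". Macrophage or monocyte-like cells numbered 5794, 5180 and 4256 in PBS, mono-IL10 and IL10/2-Trikine, dendritic cell-like cells 785, 448 and 386, and tumor epithelial cell-like cells 5432, 4850 and 10848. These are the cells with a hashtag call to 1 mouse, which 92.7 to 98.6% of the macrophage-like but 50.6, 61.4 and 49.1% of the tumor epithelial cell-like cells had in PBS, mono-IL10 and IL10/2-Trikine, and cells without one were left out. The tumor epithelial cell-like class made up 23.5, 27.2 and 41.6% of the clustered cells with a mouse, and 35.2 to 55.3% of all clustered cells, although the beads enriched for CD45. Its Ptprc (the CD45 gene) stood at 7.06 to 15.4 CPM against 711 to 812 CPM in the macrophage-like class. All levels below are CPM, the UMIs of a gene for every 1000000 UMIs summed over the cells of that class in a mouse. Such 5' counts do not scale with transcript length. They were compared between groups and classes for the same gene, and not between genes.

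Promoters of IFN-gamma targets commonly hold the GAS element (TTCNNNGAA), and the interferon regulatory factors bind the ISRE, whose core was searched as GAAA, any 2 bases and GAAA again. RefSeq promoters (GRCm38.p6, 250 bases before the start site) were used for 8 of the 10 genes, all but Gbp4 and Iigp1. Of these, 1 (Irf1) had 2 start sites, and both strands were searched. Any entry of the 10 genes on 1 chromosome was left out, while the count over all promoters kept that chromosome. Of the 9 promoters, 3 held a GAS, 5 held an ISRE core and 6 held either. Over all 32851 promoters, 7.02% held a GAS, 2.98% an ISRE core and 0.332% both. The stretches of Gbp7 and Igtp, which held both motifs, of Irf1, which held a GAS, and of Cxcl10, which held an ISRE core, are printed because these are the elements the IFN-gamma pathway acts through. Capitals mark the motif letters, and the strand is that of the gene. The Gbp7 stretch is chr3:142530086-142530335 (plus strand), the Igtp stretch chr11:58199306-58199555 (plus), the Irf1 stretch chr11:53769764-53770013 (plus) and the Cxcl10 stretch chr5:92348890-92349139 (minus).
Gbp7: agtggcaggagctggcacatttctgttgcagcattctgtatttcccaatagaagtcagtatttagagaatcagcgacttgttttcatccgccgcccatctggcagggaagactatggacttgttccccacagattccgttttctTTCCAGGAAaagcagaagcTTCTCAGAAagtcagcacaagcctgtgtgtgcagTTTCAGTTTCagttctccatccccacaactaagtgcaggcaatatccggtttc
Igtp: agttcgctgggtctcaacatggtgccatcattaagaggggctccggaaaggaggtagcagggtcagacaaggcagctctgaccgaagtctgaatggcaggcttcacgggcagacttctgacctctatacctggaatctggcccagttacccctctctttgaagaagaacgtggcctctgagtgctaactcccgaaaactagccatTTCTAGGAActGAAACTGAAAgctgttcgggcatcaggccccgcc
Irf1: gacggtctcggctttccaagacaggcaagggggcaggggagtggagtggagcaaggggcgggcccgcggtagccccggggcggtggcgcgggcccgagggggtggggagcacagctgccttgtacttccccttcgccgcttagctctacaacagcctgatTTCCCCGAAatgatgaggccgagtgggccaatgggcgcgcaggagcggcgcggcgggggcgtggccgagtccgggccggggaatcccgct
Cxcl10: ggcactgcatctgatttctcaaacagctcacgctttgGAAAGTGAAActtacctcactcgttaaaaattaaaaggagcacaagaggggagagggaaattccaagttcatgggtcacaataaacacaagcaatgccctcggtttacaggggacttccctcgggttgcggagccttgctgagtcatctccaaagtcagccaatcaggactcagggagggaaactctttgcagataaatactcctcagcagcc
In Gbp7 the GAS letters began 106 and 87 bases before the start and the ISRE core 53 bases before it. In Igtp the GAS began 45 and the ISRE core 34 bases before the start, in Irf1 the GAS 90 bases and in Cxcl10 the ISRE core 213 bases before it. Gbp2 held 1 ISRE core and Irgm1 2 overlapping ones, while neither motif was in the windows of Cxcl9, Ifi47 and the second Irf1 start. A match of letters is a description of the window and not a measured binding site.

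The 10 genes were spread unequally over cell types. In the same mouse, Iigp1, an effector of the immunity-related GTPase family, was higher in tumor cell-like than in macrophage-like cells in 15 of 15 mice, with a median ratio of 2.54. Igtp, which controls the loading of such effectors onto membranes, was also higher in tumor cell-like cells in 15 of 15 mice (median ratio 2.07), and Irf1 in 13 of 15 (1.22). Gbp7 went the other way and was lower in tumor cell-like cells in all 15 mice (median ratio 0.274), and Cxcl9 was lower in 14 of them (0.479). Gbp2 and Cxcl10 had no common order, with tumor cell-like cells higher in 8 and 9 of 15 mice. Each ratio compares 2 cell classes of 1 mouse and no test was run on it.

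RNA from other cells in a droplet bears on these levels. The genes C1qa, C1qb and C1qc, made by macrophages, summed to 59.0, 26.6 and 72.0 CPM in tumor cell-like cells of PBS, mono-IL10 and IL10/2-Trikine, against 7468, 8158 and 8154 CPM in macrophage-like cells. For each UMI of these C1q genes, macrophage-like cells held 0.0234 to 0.0347 Cxcl9 UMIs and tumor cell-like cells 1.49 to 5.22. For Igtp the same figures were 0.001 to 0.0013 against 0.299 to 0.894. These ratios concern macrophage RNA alone. Leaving out droplets with UMIs of another cell type kept 18.6% of the tumor cell-like cells. The part of RNA from macrophages or other cells in the tumor cell-like levels was not tested. Dendritic cell-like cells held more of the C1q genes, at 1941, 2011 and 2707 CPM in PBS, mono-IL10 and IL10/2-Trikine. In the other direction, the keratin gene Krt8 stood at 26.2 to 63.9 CPM in macrophage-like and 76.0 to 146 CPM in dendritic cell-like cells, against 1881 to 2257 CPM in tumor cell-like cells.

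Endothelial cell-like cells also carried the family. There, Iigp1 stood at 140.0 ± 95.3, 181 ± 112 and 179.9 ± 67.1 CPM with PBS, mono-IL10 and IL10/2-Trikine (mean ± SD, n = 5 mice each, as in all values below unless stated). Gbp4 stood at 54.9 ± 31.3, 76.5 ± 42.1 and 64.9 ± 26.7 CPM in these cells. Fibroblast-like cells held less of both, with Iigp1 at 30.3 ± 22.4, 46.7 ± 34.2 and 37.3 ± 15.7 CPM and Gbp4 at 1.77 to 3.23 CPM. In neutrophil-like cells, which were too few to give a level in IL10/2-Trikine mice, Irf1 stood at 248 ± 139 CPM in PBS and 254 ± 101 CPM in mono-IL10, and Iigp1 at 0 in all 5 PBS mice. These classes were described without a test.

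**Figure D1:**
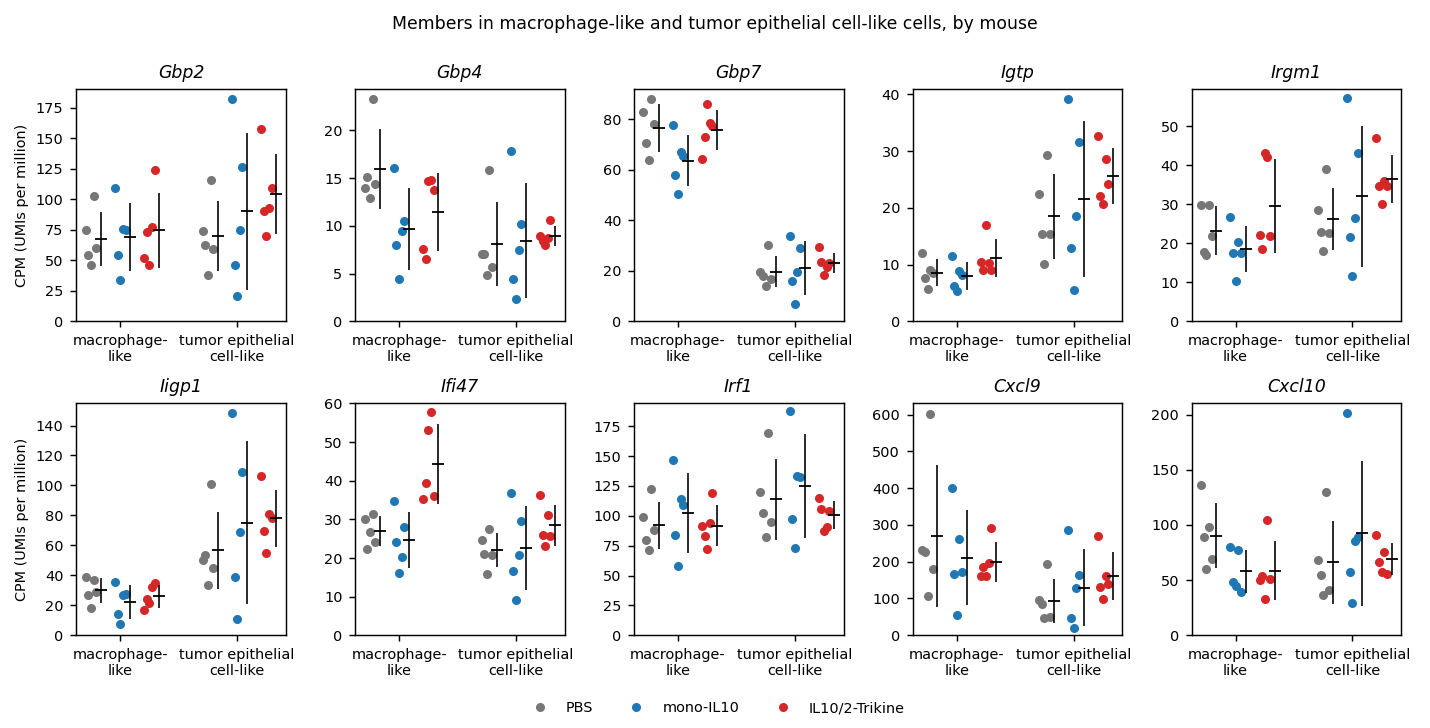
Level of each of the 10 genes (vertical axis, CPM per mouse) in macrophage-like and tumor epithelial cell-like cells, with 1 point per mouse, grouped by PBS, mono-IL10 and IL10/2-Trikine, and bars for the mean ± SD. In macrophages the 5 IL10/2-Trikine mice lie above the other groups for Ifi47 (35.2 to 57.7 CPM), while most other panels overlap.

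In macrophage-like cells, Ifi47 was the only one of the 10 genes to pass the test, and it was higher under IL10/2-Trikine than in either other group. Ifi47 (also called Irgd) encodes an immunity-related GTPase. Its level was 29.97, 22.4, 26.7, 31.5 and 24.2 CPM in PBS mice 1 to 5, 34.8, 24.2, 16.1, 20.2 and 28.1 CPM in mono-IL10 mice, and 35.2, 39.4, 53.2, 57.7 and 36.1 CPM in IL10/2-Trikine mice. All 5 IL10/2-Trikine mice were above every mouse of the other groups, the nearest being mono-IL10 mouse 1. How many of all genes separate the groups in this way was not counted. The group levels were 27.0 ± 3.80, 24.7 ± 7.20 and 44.3 ± 10.4 CPM. The log2 fold change was 0.66 against PBS (SE 0.19, 95% interval 0.26 to 1.06, edgeR adjusted p = 0.0264) and 0.65 against mono-IL10 (SE 0.19, adjusted p = 0.0336). For mono-IL10 over PBS it was 0.01 (adjusted p = 0.991). Genes past the threshold, an adjusted p under 0.05, made up 15.5% of the 11798 genes tested between IL10/2-Trikine and PBS, 25.1% between mono-IL10 and PBS and 11.7% between the treatments, against 1, 0 and 1 of the 10 genes.

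The Ifi47 call was near the threshold. Its 2 highest levels, in IL10/2-Trikine mice 3 and 4, rested on 47 and 78 UMIs. Leaving out PBS mouse 2 or 5, or IL10/2-Trikine mouse 3 or 4, gave log2 fold changes of 0.60, 0.62, 0.61 and 0.55 against PBS with adjusted p = 0.0662, 0.0540, 0.0533 and 0.0603. Against mono-IL10 the call was lost without mono-IL10 mouse 2 or 4 (log2 fold changes 0.64 and 0.59) and without IL10/2-Trikine mouse 2, 3 or 4 (0.67, 0.60 and 0.54). Median depth differed between the groups, at 4887, 6089 and 2726.5 UMIs per macrophage-like cell in PBS, mono-IL10 and IL10/2-Trikine. With the summed counts of every mouse thinned to the lowest total, the Ifi47 log2 fold change was 0.54 against PBS (edgeR adjusted p = 0.0938) and 0.51 against mono-IL10 (adjusted p = 0.186).

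The other immunity-related GTPases overlapped between groups. Irgm1, a regulator of the family and of autophagy, stood at 23.3 ± 6.32, 18.5 ± 5.95 and 29.6 ± 12.0 CPM in PBS, mono-IL10 and IL10/2-Trikine. Igtp stood at 8.62 ± 2.32, 8.03 ± 2.43 and 11.2 ± 3.31 CPM, and Iigp1 at 29.9 ± 8.23, 22.4 ± 11.3 and 26.0 ± 7.67 CPM. None of these 3 genes passed the test in any comparison.

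Among the guanylate-binding proteins, Gbp4 had lower means under both treatments without passing the test. Its level was 14.0, 15.1, 12.9, 23.3 and 14.4 CPM in the PBS mice, 16.1, 8.01, 4.40, 9.45 and 10.48 CPM in the mono-IL10 mice, and 7.57, 6.52, 14.7, 14.8 and 13.8 CPM in the IL10/2-Trikine mice. Of the mono-IL10 mice, 4 of 5 lay below all PBS mice, and mono-IL10 mouse 1 lay within their range. The log2 fold change was -0.57 for mono-IL10 (SE 0.28, edgeR adjusted p = 0.152) and -0.65 for IL10/2-Trikine (SE 0.34, adjusted p = 0.230), and without mono-IL10 mouse 1 the former was -0.89 (adjusted p = 0.0146). Gbp2 and Gbp7 had log2 fold changes between -0.15 and 0.17 against PBS and levels of 67.8 ± 22.1, 69.4 ± 27.9 and 74.8 ± 30.6 CPM for Gbp2.

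The chemokines varied widely between mice. Cxcl9 stood at 233, 227, 108, 602 and 179 CPM in the PBS mice, 401, 167, 54.2, 261 and 173 CPM in the mono-IL10 mice, and 161, 185, 161, 197 and 291 CPM in the IL10/2-Trikine mice. The groups overlapped throughout, and PBS mouse 4 alone was more than 2 times as high as any other PBS mouse. Relative to PBS the log2 fold change was -0.42 with IL10/2-Trikine and -0.24 with mono-IL10, with 95% intervals from -1.57 to 0.73 and from -1.33 to 0.86. Cxcl10 was at 136, 89.3, 59.8, 98.4 and 68.7 CPM in PBS, 80.5, 48.0, 44.7, 77.4 and 39.2 CPM in mono-IL10 and 49.8, 54.1, 32.9, 104 and 51.3 CPM in IL10/2-Trikine mice. In Cxcl10, 4 IL10/2-Trikine and 3 mono-IL10 mice lay below all PBS mice, with log2 fold changes of -0.64 (SE 0.32, edgeR adjusted p = 0.210) and -0.52 (SE 0.28, adjusted p = 0.207). Irf1 stood at 92.0 ± 19.8, 102 ± 33.3 and 91.8 ± 17.2 CPM. A Cxcl9 UMI was present in 15.6, 13.8 and 11.3% of macrophage-like cells, or 10.3, 8.19 and 8.52% at 1500 UMIs per cell. In T cells, where the gene is not expected, the shares were 3.61, 2.92 and 0.552% at median depths of 2712, 3722 and 2675 UMIs, or 2.81, 1.12 and 0.552% at 1500 UMIs.

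The macrophage-like class joined 8 clusters, and the genes differed among them. Cxcl9 was concentrated in cluster 10, at 663, 638 and 544 CPM in PBS, mono-IL10 and IL10/2-Trikine, against 45.3, 90.1 and 103 CPM in cluster 8. Ifi47 and Iigp1 instead peaked in cluster 27, with Ifi47 at 57.4, 53.0 and 70.5 CPM and Iigp1 at 86.4, 48.4 and 53.5 CPM. Ifi47 in IL10/2-Trikine was above PBS in every one of the 8 clusters, from 24.0 against 9.28 CPM in cluster 8 and 40.9 against 15.5 CPM in cluster 11 to 70.5 against 57.4 CPM in cluster 27. Refitted within single clusters, its log2 fold change against PBS ran from 0.36 in cluster 27 (edgeR adjusted p = 0.637) to 1.33 in cluster 8 (adjusted p = 0.0367) and 1.35 in cluster 11 (adjusted p = 0.0737). The make-up of the class differed between groups. Clusters 8 and 9 each held a larger share under IL10/2-Trikine, at 12.3 and 8.06% of the PBS cells, 16.3 and 14.2% of the mono-IL10 cells and 28.7 and 30.7% of the IL10/2-Trikine cells. Cluster 12 held 25.3, 7.47 and 5.05% in PBS, mono-IL10 and IL10/2-Trikine, and cluster 11 held 13.7, 21.7 and 5.26%. Gbp4 stood at 20.9, 15.9 and 18.4 CPM in cluster 12. It stood at 6.64, 6.54 and 5.27 CPM in cluster 11, the last on 4 UMIs. In cluster 10 it was at 23.9, 18.7 and 14.4 CPM. The part of the cluster mix in the Gbp4 values of the class was not tested.

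**Figure D2:**
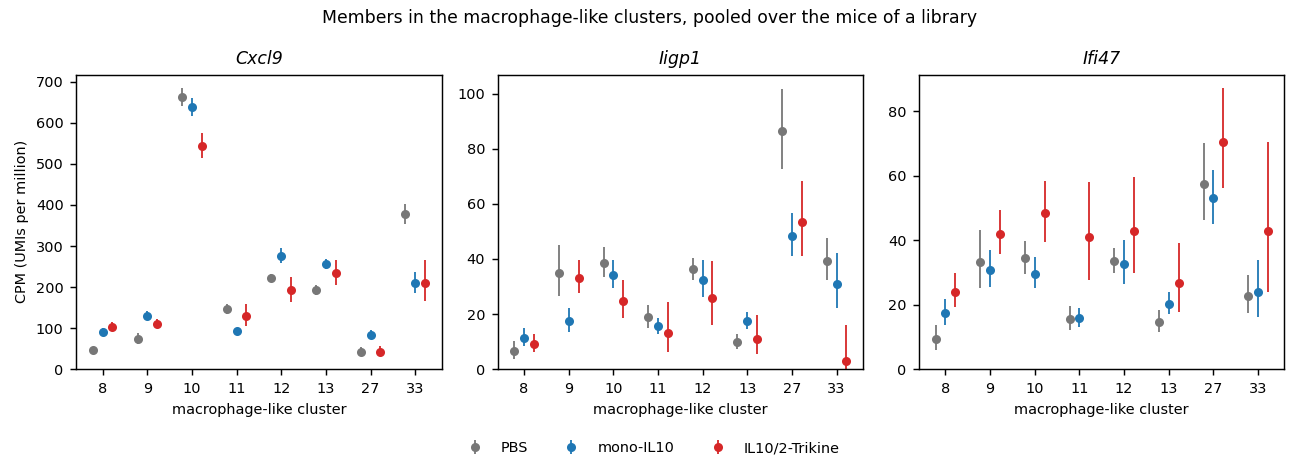
Level of Cxcl9, Iigp1 and Ifi47 (vertical axis, CPM of all cells of a cluster) in the 8 macrophage-like clusters (horizontal axis) by treatment, with exact 95% Poisson intervals that cover counting error only. Cxcl9 is highest in cluster 10 in all 3 groups (544 to 663 CPM), and Ifi47 (53.0 to 70.5 CPM) and Iigp1 (48.4 to 86.4 CPM) are highest in cluster 27.

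Around the 10 genes in macrophage-like cells, the receptor chains Ifngr1 and Ifngr2 showed small estimates, with log2 fold changes from -0.15 to 0.09 over the 3 comparisons. Socs1, which feeds back on the pathway, had estimates of -0.04 for IL10/2-Trikine against PBS, 0.36 for mono-IL10 against PBS (edgeR adjusted p = 0.146) and -0.40 between the treatments (adjusted p = 0.252). Of 7 tested genes of IFN-gamma signaling, only Ptpn2, a phosphatase that dampens the pathway, passed, at 0.41 for mono-IL10 against PBS (edgeR adjusted p = 0.000594) and -0.27 between the treatments (adjusted p = 0.0460). In both comparisons it was 14.3% of the 7, beside 25.1 and 11.7% of all genes. Of 7 other GTPases, 1 was lower under mono-IL10 (Gbp3, -0.37, adjusted p = 0.00975) and none passed under IL10/2-Trikine. Gbp3 was 14.3% of these 7 beside 25.1% of all genes. Of 19 other IFN-gamma targets, IL10/2-Trikine had 1 higher and 1 lower than PBS, a share of 10.5% beside the 15.5% of all genes. These were Fcgr1, the high-affinity IgG receptor (0.38, adjusted p = 0.00357), and Cd274, which encodes PD-L1 (-0.40, adjusted p = 0.0183). Cd274 went the other way under mono-IL10 (0.30, adjusted p = 0.0378), and between the treatments it was lower under IL10/2-Trikine (-0.70, adjusted p = 0.000403), as was Irf8 (-0.27, adjusted p = 0.00957). Cd274 and Irf8 were 10.5% of the 19 between the treatments, beside 11.7% of all genes. Fcgr1 (0.52) and Irf8 (0.36) were also higher under mono-IL10, and Ciita, the regulator of MHC class II genes, was lower (-0.81, adjusted p = 0.00714), so that mono-IL10 had 21.1% of the 19 called beside the 25.1% of all genes. Of 22 type I interferon genes none passed under IL10/2-Trikine. Rtp4, Oas1a and Irf9 were lower under mono-IL10 (-0.76, -0.32 and -0.30), a share of 13.6% beside the 25.1% of all genes. Clusters 11 and 13 held 13.7 and 13.6% of the class in PBS, 21.7 and 16.2% in mono-IL10 and 5.26 and 5.69% in IL10/2-Trikine. The part of the cluster mix and of depth in the calls of this paragraph was not tested.

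In dendritic cell-like cells 9 of the 10 genes could be tested and none passed in any comparison, where 1.48% of genes were called between IL10/2-Trikine and PBS, 3.67% between mono-IL10 and PBS and 1.5% between the treatments. At an unadjusted p under 0.05, edgeR found 1, 0 and 0 of the 9. DESeq2 also called none. That gene was Cxcl10, at 59.3, 62.2, 62.6, 49.9 and 90.9 CPM in the PBS mice, 105, 60.1, 23.7, 36.9 and 18.3 CPM in the mono-IL10 mice and 23.1, 38.3, 31.0, 35.3 and 17.2 CPM in the IL10/2-Trikine mice. All 5 IL10/2-Trikine mice were below all PBS mice, on 3 to 19 UMIs each, and the mono-IL10 mice overlapped both groups. The share of all genes with such a separation was not counted. The log2 fold change was -1.19 (SE 0.52, edgeR adjusted p = 0.356) against PBS and -1.02 (SE 0.53, adjusted p = 0.414) against mono-IL10. The C1q genes in this class were highest under IL10/2-Trikine. For each C1q UMI, dendritic cell-like cells held 0.0326, 0.0307 and 0.0106 Cxcl10 UMIs in PBS, mono-IL10 and IL10/2-Trikine, against 0.0126, 0.0074 and 0.0068 in macrophage-like cells, and the part of macrophage RNA in the difference was not tested.

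Most of this Cxcl10 lay in the cDC2-like cells, at 99.4 ± 38.8, 64.9 ± 50.6 and 28.3 ± 25.9 CPM, while in mature DC-like cells it was 20.6 ± 5.15 (n = 5), 32.1 ± 45.4 (n = 4) and 29.9 ± 19.4 CPM (n = 4). Mature DC-like cells held more Irf1, at 159 ± 50.8, 139.8 ± 27.2 and 133 ± 19.0 CPM, than cDC2-like cells at 91.9 ± 21.0, 83.4 ± 39.1 and 75.6 ± 32.3 CPM. cDC1-like cells could be given for 5, 3 and 2 mice only. In the class as a whole Cxcl9 was 149 ± 61.9, 124 ± 63.2 and 133 ± 72.8 CPM, and Ifi47 18.8 ± 2.84, 21.3 ± 7.95 and 22.7 ± 13.1 CPM. None of the 7 signaling genes, 4 other GTPases or 12 type I genes tested passed. Of 16 other IFN-gamma targets, Cd74 and H2-Ab1, both of MHC class II presentation, were lower under IL10/2-Trikine than in PBS (-0.41 and -0.40, edgeR adjusted p = 0.0175 and 0.0314). This was a share of 12.5% beside 1.48% of all genes. Both were also lower than in mono-IL10, together with the immunoproteasome gene Psmb9, a share of 18.75% beside 1.5% of all genes. The higher C1q level of the class under IL10/2-Trikine (2707 against 1941 and 2011 CPM) stands beside these calls. So does the subset mix, with cDC1-like cells at 18.9, 13.6 and 8.81% and mature DC-like cells at 22.4, 23.7 and 31.1% of the class in PBS, mono-IL10 and IL10/2-Trikine. The part of either in these calls was not tested. Without passing, Ifngr1 had estimates of -0.10, 0.21 and -0.31 for IL10/2-Trikine against PBS, mono-IL10 against PBS and between the treatments (edgeR adjusted p = 0.737, 0.201 and 0.107). In the same order Ifngr2 had -0.25, 0.00 and -0.25, and Socs1, the feedback inhibitor of the pathway, 0.20, 0.34 and -0.14.

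In tumor epithelial cell-like cells none of the 10 genes passed in any comparison, where 21.6% of 15003 genes were called between IL10/2-Trikine and PBS, 6.71% between mono-IL10 and PBS and 32.7% between the treatments. No gene of the 10 had an unadjusted p under 0.05 with edgeR, and DESeq2 called none. Against PBS, 9 estimates were above 0 for IL10/2-Trikine (all but Irf1) and 10 for mono-IL10, with medians of 0.45 and 0.38 on the log2 scale, where the medians over all genes tested were 0.0020 and -0.013. Both comparisons share the PBS mice. Between the treatments 7 of 10 were above 0, with a median of 0.073.

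Cxcl9 showed the largest estimate. It stood at 94.9, 84.0, 46.2, 193 and 49.8 CPM in the PBS mice, 285, 47.3, 19.5, 129 and 164 CPM in the mono-IL10 mice and 270, 132, 98.1, 162 and 139 CPM in the IL10/2-Trikine mice. The groups overlapped, with PBS mouse 4 above 4 of the 5 IL10/2-Trikine mice, and the log2 fold change of 0.81 had a 95% interval from -0.53 to 2.16 (edgeR adjusted p = 0.392). Iigp1 stood at 50.4, 53.9, 33.6, 101 and 44.6 CPM in PBS, 148, 39.2, 10.97, 68.7 and 109 CPM in mono-IL10 and 106, 69.6, 54.7, 80.9 and 78.6 CPM in IL10/2-Trikine mice. All 5 IL10/2-Trikine mice exceeded 4 of the PBS mice, and the interval of its log2 fold change of 0.50 ran from -0.64 to 1.63. Gbp2 was at 70.0 ± 28.9, 90.1 ± 64.6 and 104 ± 32.8 CPM and Igtp at 18.5 ± 7.43, 21.6 ± 13.7 and 25.7 ± 4.95 CPM.

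The spread had a pattern that the genes shared. In tumor cell-like cells, mouse 4 had the highest level of all 10 genes in PBS and mouse 3 the lowest of all 10. In mono-IL10, mouse 1 was highest and mouse 3 lowest for all 10, and in IL10/2-Trikine mouse 1 was highest and mouse 3 lowest for 9. Over all 15003 genes, mouse 3 was lowest in 20.3, 27.0 and 17.0% of genes in the 3 groups, and the mouse named as highest was highest in 27.4, 18.6 and 26.3%. Hashtag numbers are not stated to link mice of different groups. The highest mouse exceeded the lowest by a median over the 10 genes of 2.94 times among the PBS mice, 6.94 times among the mono-IL10 mice and 1.59 times among the IL10/2-Trikine mice, with Cxcl9 in mono-IL10 at 14.6 times. Median depth of mouse 3 in tumor cell-like cells was 25174.5, 40856.5 and 9713 UMIs, near or above the medians of 25738, 34966.5 and 10009.5 UMIs of all such cells in PBS, mono-IL10 and IL10/2-Trikine.

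The macrophage-like cells of the same mice followed this order in part. There, mouse 3 was lowest for 9, 9 and 4 of the 10 genes in PBS, mono-IL10 and IL10/2-Trikine, beside 15.1, 25.9 and 27.7% of all 11798 genes. The highest mouse was mouse 4 for 7 genes in PBS (21.9% of all genes) and mouse 1 for all 10 in mono-IL10 (16.8% of all genes). In IL10/2-Trikine the order was not that of the tumor cell-like cells, since mouse 1 was highest for none and lowest for 3 of the 10 genes. There, mouse 5 was highest for 4, and mouse 3, lowest for 4, was also highest for 3. The median spread over the 10 genes was 1.95, 2.56 and 1.99 times.

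Around the 10 genes in tumor cell-like cells, Socs1 was higher under mono-IL10 than in PBS (0.62, edgeR adjusted p = 0.0191), at 31.2 ± 6.59 against 21.8 ± 3.76 CPM, and lower under IL10/2-Trikine than under mono-IL10 (-0.50, adjusted p = 0.0161). Against PBS its estimate for IL10/2-Trikine was 0.12. Ifngr1 and Ifngr2 had estimates from -0.16 to 0.02 over the 3 comparisons, and neither passed. Jak1 and Ptpn2 were lower under IL10/2-Trikine than in PBS (-0.23 and -0.12, edgeR adjusted p = 0.00164 and 0.0225). Of 7 signaling genes tested, these were 28.6% beside 21.6% of all genes. Between mono-IL10 and PBS 1 of the 7, Socs1, passed, 14.3% beside 6.71% of all genes. Between the treatments 3 of the 7, Socs1 among them, were lower under IL10/2-Trikine, 42.9% beside 32.7% of all genes. None of 11 other GTPases passed. Of 21 other IFN-gamma targets, Fcgr1 was lower under mono-IL10 than in PBS (-1.06, edgeR adjusted p = 0.0487). This was 4.76% of them beside 6.71% of all genes. Irf8 and Fcgr1 were higher under IL10/2-Trikine than under mono-IL10 (1.69 and 1.09), 9.52% beside 32.7% of all genes. The C1q genes in this class moved the same way (26.6 CPM in mono-IL10 against 59.0 and 72.0 CPM), and their part in this result was not tested.

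Of 23 type I interferon genes tested in tumor cell-like cells, 4 were higher and 1 lower under IL10/2-Trikine than in PBS, a share of 21.7% beside 21.6% of all genes. Under IL10/2-Trikine 12 were higher and none lower than under mono-IL10, a share of 52.2% beside 32.7% of all genes, and none passed between mono-IL10 and PBS. The antiviral genes Ifit1 and Ifit3b rose most, by 1.68 and 1.51 on the log2 scale against PBS (edgeR adjusted p = 0.00649 and 0.0410), followed by Mx1 at 0.71 (adjusted p = 0.0359), and Oasl1 was lower (-0.27). Against mono-IL10, Ifit1, Ifit3b, Mx2 and Oas3 had estimates of 1.67, 1.54, 0.86 and 0.86. The median over the 23 genes was 0.35 against PBS and 0.45 against mono-IL10. The class joined 7 clusters in unequal shares. Clusters 1 and 2 held 17.4 and 10.95% of its PBS cells, 13.7 and 12.3% of its mono-IL10 cells and 20.2 and 20.8% of its IL10/2-Trikine cells, while clusters 3 and 6 held 21.7 and 14.0, 26.5 and 15.7, and 16.0 and 8.36%. The part of this mix and of the C1q difference (59.0, 26.6 and 72.0 CPM) in these calls was not tested.

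Whether a treatment acted differently on macrophage-like and tumor cell-like cells of the same mice was tested as an interaction. Gbp4 alone among the 10 genes passed, for IL10/2-Trikine against PBS (difference of the log2 fold changes, macrophages minus tumor cells, -0.89, SE 0.26, edgeR adjusted p = 0.0471) and for mono-IL10 against PBS (-0.74, SE 0.22, adjusted p = 0.0245), with 5.46 and 15.6% of all genes called. Neither comparison of Gbp4 with PBS passed within a class. Its level was 15.9 ± 4.18, 9.68 ± 4.25 and 11.5 ± 4.09 CPM in macrophage-like and 8.13 ± 4.41, 8.45 ± 6.03 and 8.95 ± 1.02 CPM in tumor cell-like cells of PBS, mono-IL10 and IL10/2-Trikine. The part of the macrophage cluster mix in the interaction was not tested. The value was -0.83 to -0.92 and the adjusted p 0.0632 to 0.0985 for IL10/2-Trikine without PBS mouse 1, 2, 3 or 5, and -0.78, -0.78 and -0.98 without IL10/2-Trikine mouse 1, 2 or 5. For mono-IL10 it was -0.72, -0.68 and -0.68 without PBS mouse 2, 3 or 5, and -0.57 and -0.68 without mono-IL10 mouse 1 or 5, all no longer past the threshold. When droplets with UMIs of another cell type were left out, which kept 18.6% of the tumor cell-like cells, the mono-IL10 value turned to 0.13 (adjusted p = 0.967). The IL10/2-Trikine value was then -1.05 (adjusted p = 0.168), and Cxcl9 (-2.03, adjusted p = 0.0324) and Cxcl10 (-2.08, adjusted p = 0.0310) passed in its place. With all droplets, Cxcl9 (-1.18, adjusted p = 0.107), Iigp1 (-0.89, adjusted p = 0.178) and, for mono-IL10, Cxcl10 (-1.01, adjusted p = 0.103) missed the threshold, and no gene of the 10 passed between the treatments, where 11.6% of all genes did.

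In cells of the deposited annotation outside its NK clusters, taken as T cells, Igtp was lower under IL10/2-Trikine than in PBS. Of the 516, 843 and 725 annotated T and NK cells in PBS, mono-IL10 and IL10/2-Trikine, 348, 635 and 400 had a mouse. Those without one were left out. T cells with a mouse numbered 249, 446 and 181 in the 3 groups, so only Gbp7, Igtp, Ifi47 and Irf1 passed the filter on low counts. Igtp stood at 67.8, 31.0, 144, 128 and 66.2 CPM in the PBS mice, 46.9, 69.2, 91.2, 49.0 and 42.7 CPM in the mono-IL10 mice and 71.1, 19.5, 17.4, 0 and 41.3 CPM in the IL10/2-Trikine mice, the last on 9, 4, 1, 0 and 5 UMIs. Of the IL10/2-Trikine mice, 3 lay below all PBS mice and the others overlapped them. The log2 fold change was -1.41 (SE 0.45, edgeR adjusted p = 0.0477), with 9.19% of 3189 genes called, and -0.69 (SE 0.31, adjusted p = 0.284) for mono-IL10, with 2.57% called. Between the treatments, where 12.8% of genes were called, none of the 4 genes passed.

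This call rested on few UMIs. It was lost without PBS mouse 1, 3 or 4 (log2 fold changes -1.51, -1.22 and -1.18), without mono-IL10 mouse 1, 2, 4 or 5 (-1.41 to -1.42, adjusted p = 0.0510 to 0.0576) and without IL10/2-Trikine mouse 2, 3, 4 or 5 (-1.12, -1.33, -1.28 and -1.51). The level of Igtp was higher in regulatory T cells, at 258, 238 and 129 CPM in the 2 Treg clusters of PBS, mono-IL10 and IL10/2-Trikine (52, 50 and 12 UMIs) against 46.0, 33.0 and 15.1 CPM in the other T cells (31, 61 and 7 UMIs). Tregs made up 22.1, 12.6 and 17.1% of the T cells. The other clusters were also unequally shared. Cycling_T held 17.3, 22.2 and 51.9% of the T cells in PBS, mono-IL10 and IL10/2-Trikine, gdT/NKT 22.5, 12.6 and 16.6%, and naive_CD8T 12.4, 27.1 and 1.10%. The part of this mix and of the cells with NK transcripts in the T cell results, the pathway genes below included, was not tested. These Igtp levels, summed over mice, were lowest under IL10/2-Trikine in Tregs and in the others, on 12 and 7 UMIs and with no test. Without the Treg clusters Igtp no longer passed the filter on low counts.

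Irf1, Gbp7 and Ifi47 did not pass in T cells. Irf1 was at 145 ± 61.0, 126 ± 16.2 and 115 ± 10.7 CPM (log2 fold change -0.43 for IL10/2-Trikine against PBS, edgeR adjusted p = 0.316), and Ifi47 at 70.5 ± 24.2, 62.4 ± 23.2 and 71.2 ± 41.2 CPM. Iigp1 was found with 16, 8 and 1 UMIs in all T cells of PBS, mono-IL10 and IL10/2-Trikine, too few for a test. Of 7 tested genes of IFN-gamma signaling, 3 were lower and none higher under IL10/2-Trikine than in PBS, a share of 42.9% beside 9.19% of all genes, among them Jak2 and Ifngr1 (-0.95 and -0.47, adjusted p = 0.00831 and 0.0112). Ifngr1 stood at 739 ± 39.1, 703 ± 83.4 and 534 ± 80.7 CPM, and it was also lower under IL10/2-Trikine than under mono-IL10 (-0.47, adjusted p = 0.00629). It was 1 of the 7 signaling genes there, 14.3% beside 12.8% of all genes. Socs1 stood at 78.8 ± 14.96, 47.8 ± 13.4 and 39.7 ± 9.94 CPM, with estimates of -0.93 (adjusted p = 0.0838) for IL10/2-Trikine and -0.64 (adjusted p = 0.188) for mono-IL10 relative to PBS and -0.29 between the treatments. Ifng itself had estimates of 0.70 (adjusted p = 0.482) for IL10/2-Trikine and 0.63 (adjusted p = 0.543) for mono-IL10 relative to PBS and 0.07 between the treatments, with levels of 42.6 ± 28.1, 58.7 ± 34.5 and 64.4 ± 27.8 CPM. Of 12 other IFN-gamma targets, 5 were lower and none higher under IL10/2-Trikine than in PBS, led by Cd74 (-1.47), Nlrc5, the regulator of MHC class I genes (-1.04), H2-K1 (-0.50) and B2m (-0.45). These 5 were 41.7% of the list beside 9.19% of all genes. Leaving out droplets with UMIs of another cell type kept 40.9% of the T cells, and the part of such UMIs in the Cd74 result was not tested. Between the treatments 2 of the 12 were lower under IL10/2-Trikine, Nlrc5 (-0.93) and B2m (-0.38), and 1 was higher, the peptide transporter gene Tap1 (0.67, adjusted p = 0.0495). Together they were 25% of the list beside 12.8% of all genes. Under mono-IL10, Cd74 was lower than in PBS (-1.60, adjusted p = 0.0288), 8.33% of the list beside 2.57% of all genes.

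Among the annotated clusters, Igtp was highest in the Treg and interferon-stimulated clusters. Igtp was at 289, 284 and 152 CPM in Treg of PBS, mono-IL10 and IL10/2-Trikine, with exact 95% Poisson intervals of 198 to 408, 203 to 386 and 65.8 to 300.4 CPM, and at 31.2, 23.3 and 15.4 CPM in Cycling_T. In gdT/NKT cells it was at 35.6 and 9.43 CPM in PBS and mono-IL10 and had 0 UMIs in IL10/2-Trikine, where 3 counts would be 42.8 CPM. Irf1 in Treg was at 262, 277 and 95.3 CPM, the last on 5 UMIs with an interval of 30.9 to 222 CPM, and Gbp7 at 208, 170.2 and 114 CPM. In naive_CD8T, Irf1 stood at 314 CPM in PBS (203 to 463) and 133 CPM in mono-IL10 (101 to 173), and the cluster had 2 cells in IL10/2-Trikine. The interferon-stimulated cluster ISG+CD8T had 5, 6 and 1 cells, with Igtp at 482 CPM in PBS and 497 CPM in mono-IL10. These intervals cover counting error only, and with the mice of a cluster summed there was no test.

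**Figure D3:**
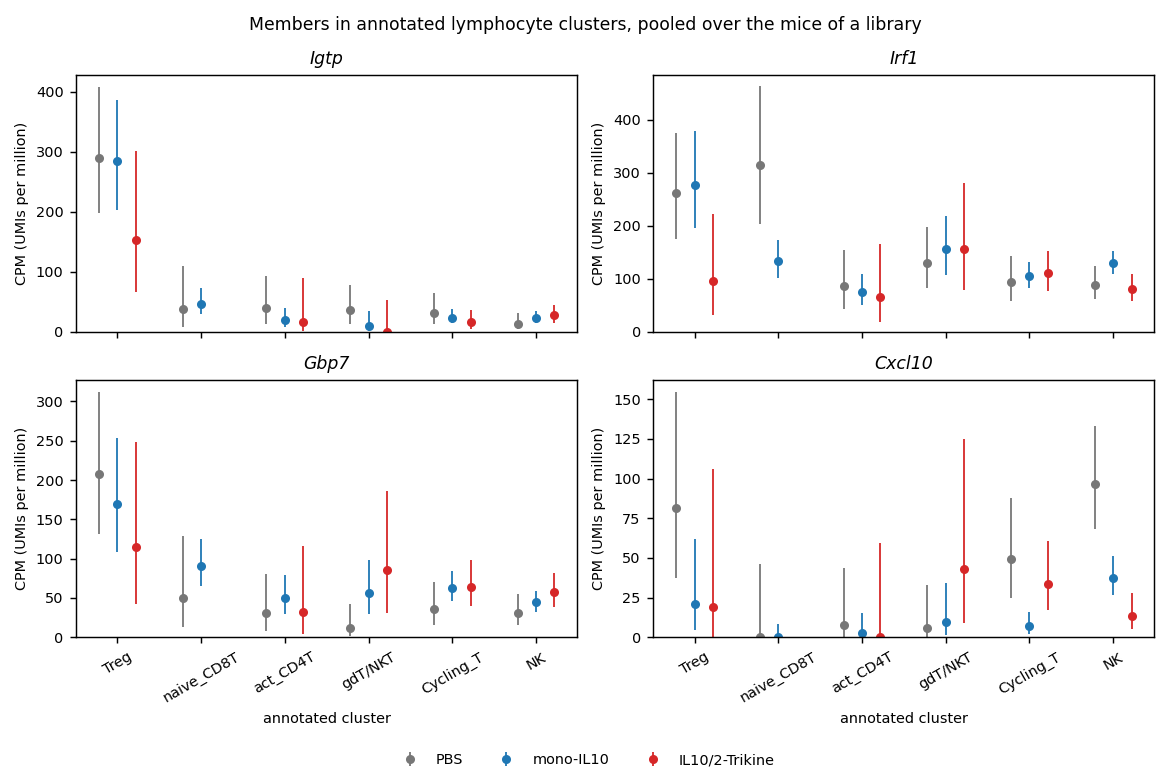
Level of Igtp, Irf1, Gbp7 and Cxcl10 (vertical axis, CPM of all annotated cells of a cluster) in 6 lymphocyte clusters (horizontal axis) by treatment, with exact 95% Poisson intervals that cover counting error only. Igtp is highest in Treg in each group (289, 284 and 152 CPM), and Cxcl10 in NK is highest in PBS (96.8 CPM).

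In NK cells only Irf1 could be tested, and it did not pass in any comparison, where 5.1, 0.382 and 3.44% of 2355 genes were called for IL10/2-Trikine against PBS, mono-IL10 against PBS and between the treatments. Its level was 105 ± 56.4 CPM in PBS, 120.2 ± 13.0 CPM in mono-IL10 (n = 4, as 1 mouse had too few NK cells) and 92.3 ± 23.7 CPM in IL10/2-Trikine, with log2 fold changes of 0.01, 0.42 and -0.41 in the same order of comparisons. None had an unadjusted p under 0.05 with edgeR, and DESeq2 called none. Cxcl10 was at 472, 78.2, 0, 69.9 and 60.4 CPM in the PBS mice, on 16, 9, 0, 9 and 3 UMIs, and at 9.99 to 23.0 CPM in the IL10/2-Trikine mice. PBS mouse 1, with 10 NK cells, was the highest, and mice 2 to 5 ranged from 0 to 78.2 CPM. Iigp1 had 0 UMIs in all PBS NK cells, 1 in mono-IL10 and 2 in IL10/2-Trikine, and Cxcl9 had 2, 8 and 4 UMIs beside 37, 85 and 66 UMIs of the C1q genes.

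The inducer and the chemokine receptor were sparse in NK cells and were below the filter on low counts, so their values, looked at after the others, are a description. Ifng was at 0, 7.77 and 28.2 CPM (lowest, median and highest mouse) in PBS, 13.1, 40.8 and 62.1 CPM in mono-IL10 and 11.5, 43.2 and 150.0 CPM in IL10/2-Trikine, so the groups overlapped. Cxcr3 had 0 UMIs in the PBS NK cells and stood at 13.3 ± 6.59 CPM in mono-IL10 (n = 4) and 7.37 ± 6.93 CPM in IL10/2-Trikine. In T cells Cxcr3 was at 40.6 ± 25.4, 46.6 ± 24.3 and 21.1 ± 28.5 CPM. Of 11 other IFN-gamma targets tested in NK cells, B2m and H2-K1 of MHC class I were lower under IL10/2-Trikine than in PBS (-0.36 and -0.38, edgeR adjusted p = 0.00489 and 0.0349). This was a share of 18.2% beside 5.1% of all genes. Cycling_NK made up 3.03, 4.76 and 13.7% of the NK cells in PBS, mono-IL10 and IL10/2-Trikine. The part of this mix in the calls was not tested. Ifngr1 had an estimate of -0.39 (edgeR adjusted p = 0.157) for IL10/2-Trikine over PBS. Its estimates were 0.04 for mono-IL10 over PBS and -0.43 (adjusted p = 0.120) between the treatments.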

How the data were processed

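Cells of dissociated tumors, enriched for CD45, were profiled in droplets on the 10x GEM-X 5' platform, each mouse carrying a hashtag antibody. The authors made the deposited UMI counts per gene and barcode with Cell Ranger on GRCm39, without normalization, and the deposited annotation table gives T and NK cell clusters, mice and the percent of mitochondrial UMIs. A further 7858 cells in it, whose groups match none of the samples, were not used. Submitters' processing notes name Seurat 5.1.0 and DESeq2 1.46.0. The 10 genes and all lists were chosen with earlier results of these data known.

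Hashtags were called with HTODemux (Seurat 5.3.0), and barcodes with more than 1 hashtag were left out, while those with none were clustered but not summed. Barcodes with at least 1000 genes and at most 10% mitochondrial UMIs were clustered without interferon genes (40 principal components, 60 k-means clusters, scikit-learn 1.9.0) and named from markers. The rule on leading genes of a cluster was set after the clusters were seen, and 26.8 to 35.7% of the cells stayed unnamed. The annotated NK and Cycling_NK clusters were taken as NK cells and the other annotated clusters as T cells. Counts were summed per mouse and class (at least 10 cells) and tested with edgeR 4.0.16 (TMM, filterByExpr, robust quasi-likelihood fit, R 4.3.3), with Benjamini-Hochberg adjustment over all genes tested and a threshold of 0.05. The macrophage and tumor cell classes were also fitted together for the interaction, with mice as blocks. On simulated counts of the macrophages (11603 genes), 73.7% of genes changed 2-fold and 98.0% of those changed 4-fold were recovered. On those of the NK cells (2175 genes) 67.0 and 97.8% were recovered. Every simulated gene had the same spread between mice (dispersion 0.05). These shares therefore do not hold for genes of wider spread, such as Cxcl9 at 270 ± 193 CPM in PBS macrophages. Summed UMIs per mouse ran from 882716 to 10602932 in macrophages, and Poisson intervals are exact at 95%. Other genes are named where they passed the test, at most 4 per list and class with the largest change, and the receptor chains, Socs1, Ifng and Cxcr3 wherever tested. Of the listed genes, 1 is not reported here. Promoter sequences are RefSeq's. Alternatives were DESeq2 1.42.0, other scalings and filters, thinned counts, other clusterings, removal of mixed droplets and each mouse left out.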

Additional observations from a re-analysis of the deposited data

Results flagged for a closer look

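In 18 of 149 groups of 4 or 5 mice (12.1%), the highest or lowest mouse stood apart from the others by Dixon's criterion, and the 10 genes share the same mice and libraries. Chance meets the criterion in about 1 group in 20 only where values are normally distributed. A group with UMIs in 1 mouse alone is always flagged, so the 12.1% cannot be set against that rate. In macrophage-like cells, PBS mouse 4 had 23.3 CPM of Gbp4 (the others 12.9 to 15.1) and 602 CPM of Cxcl9 (the others 108 to 233). The same mouse had 15.8 CPM of Gbp4 in tumor cell-like cells, where the others had 4.87 to 7.10. In IL10/2-Trikine macrophages, mouse 3 had 17.0 CPM of Igtp (the others 9.03 to 10.4) and mouse 5 had 291 CPM of Cxcl9 (the others 161 to 197). In dendritic cell-like cells, Igtp was at 17.0 CPM in IL10/2-Trikine mouse 1 (the others 5.73 to 7.74), and Ifi47 was lowest in PBS mouse 1 at 13.8 CPM (the others 18.9 to 20.6).

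In NK and T cells most such values rested on few UMIs. In NK cells, PBS mouse 3 had 42.3 CPM of Igtp on 3 UMIs and the lowest Ifi47 at 14.1 CPM on 1 UMI, and mono-IL10 mouse 1 had 2.997 CPM of Iigp1 on 1 UMI. Ifi47 was at 120.0 CPM in IL10/2-Trikine mouse 3 (8 UMIs), and PBS mouse 1 had 29.5 CPM of Cxcl9 (1 UMI) and 472 CPM of Cxcl10 (16 UMIs). In T cells, PBS mouse 1 had 98.7 CPM of Gbp2 on 16 UMIs, against 37.2 to 47.5 CPM in the others. Among the IL10/2-Trikine T cells, Irgm1 was at 33.1 CPM in mouse 5 (4 UMIs), Iigp1 at 7.90 CPM in mouse 1 (1 UMI), Cxcl9 at 21.4 CPM in mouse 4 (1 UMI) and Ifi47 at 0 in mouse 3, where the others had 79.0 to 107 CPM.

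The estimated effect on Gbp4 differed between macrophage-like and tumor cell-like cells by -0.89 on the log2 scale for IL10/2-Trikine against PBS and by -0.74 for mono-IL10 against PBS (edgeR interaction, adjusted p = 0.0471 and 0.0245). Both calls were near the threshold. Each was lost without some single mice and under some alternatives, among them thinned totals and the removal of mixed droplets.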

How the results depend on the processing

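In macrophage-like cells the count against PBS for IL10/2-Trikine went from 1 to 0 with every gene with a count kept (Ifi47 0.62, edgeR adjusted p = 0.107), with thinned totals (0.54), with cells of at least 2000 genes (0.56), with interferon genes among the variable genes (0.61, adjusted p = 0.0530) and in clusters 9, 10, 11, 13 and 27 alone. Ifi47 stayed past the threshold with DESeq2 (0.70, adjusted p = 0.00329). Against mono-IL10 the count went from 1 to 0 under the same alternatives, in cluster 8 alone, without mixed droplets (0.63, adjusted p = 0.0556) and with clusters led by another type or of low score added (0.51 and 0.58). In T cells the count for IL10/2-Trikine against PBS went from 1 to 0 with thinned totals, without mixed droplets, with Cycling_T cells with NK UMIs taken as NK cells and without the Treg clusters, since Igtp then failed the filter on low counts, and DESeq2 gave it no adjusted p. With every gene with a count kept, Cxcl10, which the filter had left out, passed in T cells between mono-IL10 and PBS (-2.69, adjusted p = 9.7e-06). For the interaction of IL10/2-Trikine against PBS the count went from 1 to 2 with DESeq2 (Gbp4 and Cxcl9) and without mixed droplets (Cxcl9 and Cxcl10, Gbp4 being lost at -1.05), and to 0 with library totals alone, thinned totals, cells of at least 2000 genes and 40 clusters. For that of mono-IL10 it went from 1 to 0 with thinned totals, to 2 with cells of at least 2000 genes, and to 0 without mixed droplets, where Gbp4 turned to 0.13. With DESeq2 it stayed at 1, with Cxcl10 (-1.002, adjusted p = 0.0453) in place of Gbp4 (-0.70, adjusted p = 0.0533). The causes were not tested. With each mouse left out in turn, the count ranged from 0 to 1 in the 3 macrophage comparisons and for IL10/2-Trikine against PBS in T cells, from 0 to 1 and from 0 to 2 for the interactions against PBS, and was 0 in the dendritic, tumor and NK cell comparisons, the other T cell comparisons and the interaction between the treatments. Library totals, added clusters, single clusters and the removal of Tregs were chosen after seeing the data. Cells of at least 2000 genes were not run for NK and T cells, where mice were missing. Between treatments, no paired analysis was possible because each treatment is 1 sample and hashtag numbers only name its mice, while the fit across cell classes kept each mouse as a block. Few UMIs limit the lymphocyte values, with 1 of the 10 genes tested in NK cells and 4 in T cells.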
